A study of Mus musculus with 3 samples.

Results

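The 4 mouse Hox clusters were examined in maps of contact with the nuclear periphery. The clusters were taken by position, and the rule used no measured value, though the borders were chosen with earlier results of these data known. They were Hoxa at chr6:52100001-52220000, Hoxb at chr11:96050001-96230000, Hoxc at chr15:102745001-102870000 and Hoxd at chr2:74495001-74610000, all in mm9 and counted from 1. The 500 kb on each side of every cluster was kept apart as a flank, which made 12 regions in all. A fragment between neighbouring GATC sites was placed in a region by its middle, and 1237 fragments lay in the clusters and 9618 in the flanks, of 6415372 in the genome. The fragments were shared out as 261 in Hoxa, 438 in Hoxb, 294 in Hoxc and 244 in Hoxd.

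The study used DamID in mouse embryonic fibroblasts, which are connective tissue cells grown from embryos, here of the C57BL/6 strain and wild type. Retroviruses carried Dam joined to Lamin A, Dam joined to Lap2b, or Dam with no partner, and each of these 3 groups had 1 sample. Dam is a bacterial enzyme that methylates the adenine of GATC, Lamin A is one of the lamins that line the inside of the nuclear envelope, and Lap2b sits in the inner membrane of that envelope. A value is a log2 ratio of fusion over reference in a fragment, so that 0 means equal signal and −1 means a 2-fold lower signal of the fusion. The reference is presumed to be the sample with Dam alone. Lamina-associated domains (LADs) are long stretches with more signal of the fusion than of the reference, and 1 list of them came with each fusion. With 1 sample a group there was no replicate check and no p-value. The SDs given below are spreads over bins or fragments within 1 library.

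Hox genes encode homeodomain transcription factors that give cells their position along the head-to-tail axis of the embryo. Within a cluster their order on the chromosome follows the order in which they are switched on, from group 1 at one end to group 13 at the other, and the groups are shared between clusters as paralogues. Where they are off, the clusters are a well-known target of Polycomb repression, a form of silencing distinct from the lamina-bound heterochromatin of LADs. The Hoxd cluster is flanked by gene-poor stretches that hold its distant limb enhancers. The RefSeq gene table (GRCm38.p6) listed 39 Hox genes, with 11 in Hoxa, 10 in Hoxb, 9 in Hoxc and 9 in Hoxd. In that table the neighbours beyond the group 13 end were Evx1 and Hibadh for Hoxa, Ttll6 and Calcoco2 for Hoxb, Calcoco1 and Atp5g2 for Hoxc, and Evx2 and Lnpk for Hoxd. Beyond the opposite end they were Skap1 and Snx11 for Hoxb, Smug1 and Cbx5 for Hoxc, and Mtx2 for Hoxd. No genome of the mm9 build was used, so values are given for clusters, ends and bins and not for single genes.

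DamID reads a sequence only through its GATC sites, and Hox promoters differ in whether they hold any. Of 24 promoters of 22 Hox genes in the RefSeq table, 13 (54.2%) held GATC in the 250 bases before the start, against 41.9% of all 32851 promoters of that length. The other genes of the 39 had no promoter among these 24, so the share does not cover them. GATC is its own reverse complement, so that both strands are covered. The dinucleotide CG occurred a median of 12.5 times in these Hox promoters and 6 times in all promoters. The sequences below are from RefSeq on GRCm38.p6 and written 5′ to 3′. Among the 24, they show for each cluster the promoter with the most sites (the first by position where several tied). The Hoxd13 promoter, which held none, is added. Capitals mark GATC. Their positions belong to GRCm38 and were not carried over to the mm9 bins.
Hoxa2 (chr6:52164832-52165081, minus strand): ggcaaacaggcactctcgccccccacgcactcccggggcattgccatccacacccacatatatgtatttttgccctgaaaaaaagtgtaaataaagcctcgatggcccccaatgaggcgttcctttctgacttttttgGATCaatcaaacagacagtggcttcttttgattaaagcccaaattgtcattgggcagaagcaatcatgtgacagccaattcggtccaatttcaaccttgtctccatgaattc
Hoxb8 (chr11:96281655-96281904, plus strand): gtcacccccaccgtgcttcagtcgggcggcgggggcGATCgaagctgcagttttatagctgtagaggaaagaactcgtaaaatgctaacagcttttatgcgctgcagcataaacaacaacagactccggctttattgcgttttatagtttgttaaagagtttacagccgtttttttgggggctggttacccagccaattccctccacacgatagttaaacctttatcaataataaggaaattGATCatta
Hoxc4 (chr15:103034145-103034394, plus strand): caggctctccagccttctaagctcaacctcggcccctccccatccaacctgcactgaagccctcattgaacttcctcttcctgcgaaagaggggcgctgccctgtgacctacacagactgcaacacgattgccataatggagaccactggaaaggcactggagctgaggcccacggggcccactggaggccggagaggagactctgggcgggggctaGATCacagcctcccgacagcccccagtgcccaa
Hoxd11 (chr2:74682073-74682322, plus strand): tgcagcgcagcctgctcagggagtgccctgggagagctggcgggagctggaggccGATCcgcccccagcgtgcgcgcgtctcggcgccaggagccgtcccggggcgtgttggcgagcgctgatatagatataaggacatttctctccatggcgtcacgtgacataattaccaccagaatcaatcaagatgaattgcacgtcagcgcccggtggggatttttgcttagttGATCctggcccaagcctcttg
Hoxd13 (chr2:74667975-74668224, plus strand): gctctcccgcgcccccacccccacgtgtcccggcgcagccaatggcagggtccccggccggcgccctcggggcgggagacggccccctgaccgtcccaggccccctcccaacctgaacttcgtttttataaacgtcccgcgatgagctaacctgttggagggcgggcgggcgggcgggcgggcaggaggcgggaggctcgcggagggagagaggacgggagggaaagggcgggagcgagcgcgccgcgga
The Hoxb8 and Hoxd11 stretches held 2 sites each, while a contact at the Hoxd13 promoter can be read only from sites outside it. The clusters were somewhat poorer in sites than the genome, with 21.2 to 24.3 fragments per 10 kb against 25.1, and a median fragment of 296.5 to 349 bp against 258 bp.

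Libraries and labels need 1 remark before the results. Across the genome, 10 kb bins in the LAD list labelled Dam-Lamin A alone averaged −0.04 in their own profile, against 0.46 in the Dam-Lap2b one. Bins that only the Dam-Lap2b list held averaged 0.37 in the Dam-Lamin A profile, against 0.04 in their own. Lists and profiles thus went together crosswise. Labels may have been exchanged between the 2 profiles or between the 2 lists, and these files cannot tell which, if either. Every profile and list is named here by its label, and if the profiles were exchanged, each statement of which fusion was higher would turn around. Whole read numbers recovered from the ratios, which are lower bounds, summed to 139425430 (Dam-Lamin A), 151510643 (Dam-Lap2b) and 153449176 (reference).

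All 4 clusters had means below 0 in both profiles. In the Dam-Lamin A profile the mean over fragments was −1.66 in Hoxa, −0.68 in Hoxb, −0.41 in Hoxc and −0.32 in Hoxd. In the Dam-Lap2b profile it was −1.97 in Hoxa, −1.61 in Hoxb, −1.44 in Hoxc and −1.11 in Hoxd. By these means Hoxa was lowest and Hoxd highest in both. Depth fell in the same order, with a median of 34, 13, 12 and 8 reference reads a fragment from Hoxa to Hoxd. The part of depth in the order of the means was not tested. The order did not hold under every way of averaging. With summed reads Hoxd was at 0.10 in the Dam-Lamin A profile, above 0, and at −2.30 in the Dam-Lap2b profile, the lowest of the 4. Weighted by fragment length, Hoxc (−0.15) was above Hoxd (−0.19) in the Dam-Lamin A profile, as it was over fragments of 200 to 1000 bp (−0.33 against −0.68). The SD over 10 kb bins was 0.30 to 0.71 in the former profile and 0.54 to 0.81 in the latter. In the Dam-Lap2b profile each step between neighbours in that order was smaller than these SDs, and in the Dam-Lamin A profile only the step from Hoxa to Hoxb was larger.

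Set against the whole genome, the clusters stood lower in the Dam-Lap2b profile than in the Dam-Lamin A profile. For Hoxa, 2.05% of 21404 genome windows of the same length had a lower mean in the Dam-Lamin A profile, and 1.44% had one in the Dam-Lap2b profile. For Hoxb these shares were 29.3% and 4.83% of 14290 windows. They were 35.9% and 7.92% of 20552 windows for Hoxc, and 38.3% and 15.1% of 22339 windows for Hoxd. Only Hoxa was thus among the lowest few percent in both.

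By bins of 10 kb, 54 of the 55 cluster bins were below 0 in the Dam-Lap2b profile, where 40.7% of all bins were. In the Dam-Lamin A profile 51 of 55 were below 0, against 44.8% of all bins, and the same 51 were below 0 in both profiles, against 37.9%. About as many were below 0 in the 6 flanks of Hoxa, Hoxb and Hoxc, with 88.3% of their 300 bins in each profile. Few of these flank bins lay in LADs, 14 by the Dam-Lamin A list and 11 by the Dam-Lap2b list. The bar of −1, a 2-fold lower signal, separated the profiles more. It was passed by 45 of 55 cluster bins in the Dam-Lap2b profile (19.2% of all bins) and by 17 of 55 in the Dam-Lamin A profile (22.7% of all bins). Among genome bins in neither LAD list, 44.3% and 51.6% were below −1 in the Dam-Lap2b and Dam-Lamin A profiles. Neighbouring bins are not independent.

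**Figure D1:**
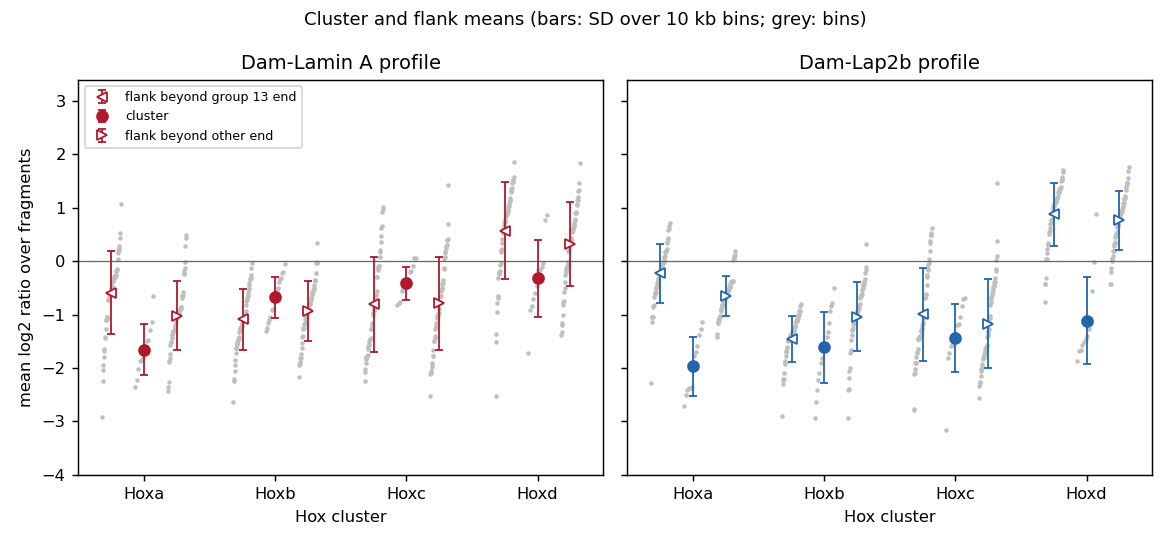
Mean log2 ratio over fragments of fusion to reference (vertical axis) for each Hox cluster (filled circles) and its 500 kb flanks (open triangles, pointing left for the group 13 end and right for the opposite end), in the Dam-Lamin A profile (left) and the Dam-Lap2b profile (right). Bars are SDs over 10 kb bins, grey points are the bins, and the Hoxd flanks (0.33 to 0.88) are the only ones above 0.

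The flanks set Hoxd apart from the other clusters. Its flank beyond Hoxd13, on the Evx2 side, averaged 0.57 in the Dam-Lamin A profile and 0.88 in the Dam-Lap2b profile. Its flank beyond Hoxd1, on the Mtx2 side, averaged 0.33 and 0.77. The former value lost its sign when weighted by fragment length (−0.0032) and with a flank of 250 kb (−0.071). The 6 flanks of Hoxa, Hoxb and Hoxc averaged −1.09 to −0.59 in the Dam-Lamin A profile and −1.46 to −0.22 in the Dam-Lap2b profile. Of their 300 bins, 265 were below 0 in each profile. In the Dam-Lap2b profile 46 of 50 bins of each Hoxd flank were above 0, where 59.3% of all bins were, and in the Dam-Lamin A profile 36 and 31 of 50 were, against 55.2% of all bins. These 36 and 31 bins were above 0 in both profiles, as were 52.4% of all bins. The level of 1 was passed by 16 and 9 of 50 in the Dam-Lamin A profile (33.8% of all bins) and by 27 and 17 of 50 in the Dam-Lap2b profile (37.4% of all bins).

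In the LAD lists, Hoxd lay between LADs. Neither list had any base of the Hoxd cluster in a LAD, but 80.6% of the flank beyond Hoxd13 and 83.2% of the flank beyond Hoxd1 lay in the list labelled Dam-Lamin A. In the list labelled Dam-Lap2b these shares were 51.4% and 74.8%. Domains called here, as runs of at least 100 kb of bins above 0, covered 49% and 12% of these flanks in the Dam-Lamin A profile, and 71% and 82% in the Dam-Lap2b profile. By comparison, 54.6% and 50.5% of all genome bins lay in the 2 lists. In the list labelled Dam-Lamin A the LAD before the cluster, chr2:73764791-74397757, ended 97.2 kb from it, and the next one, chr2:74684728-74973328, began 74.7 kb past it. The gap that held the cluster was 287 kb long, longer than 65.5% of its 2138 gaps between LADs. In the list labelled Dam-Lap2b the gap was 484 kb, between chr2:73771167-74251964 and chr2:74735851-75419520, and longer than 74.3% of 2354 gaps.

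The LAD on the Evx2 side averaged 0.69 in the Dam-Lamin A profile and 0.94 in the Dam-Lap2b profile, with borders taken from the Dam-Lamin A list. By that list the LAD on the Mtx2 side averaged 0.32 and 0.76. By means over 100 kb, signal on each side was lowest in the 100 kb next to the cluster. On the Evx2 side, the mean over successive 100 kb away from the cluster was −0.17, −0.05, 1.01, 1.00 and 0.95 in the Dam-Lamin A profile, and 0.19, 0.51, 1.06, 1.30 and 1.23 in the Dam-Lap2b profile. On the Mtx2 side it was −0.61, 0.17, 0.30, 0.82 and 0.89 in the former and 0.19, 0.60, 0.75, 1.01 and 1.24 in the latter. These are means over 100 kb, and within them signal did not fall steadily toward the cluster. On the Evx2 side chr2:74445001-74455000 was at 0.95 and 0.57, and chr2:74405001-74415000, farther out, at −2.52 and −0.43. Still farther out, chr2:74295001-74305000 was at 1.29 and 1.11. On the Mtx2 side the bin next to the cluster, chr2:74610001-74620000, was at 0.40 and 0.98. Farther out there, chr2:74680001-74690000 was at −1.39 and −0.13. These bins were chosen after their values were seen.

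The border at the Hoxd13 end was clear in the Dam-Lap2b profile and not sustained in the Dam-Lamin A profile. The last 10 kb outside and the first 10 kb inside the cluster there were at 0.05 and −1.505 in the Dam-Lap2b profile, and at −0.21 and −1.71 in the Dam-Lamin A profile. The next bin inside, chr2:74505001-74515000, was at −1.67 in the Dam-Lap2b profile but at −0.12 in the Dam-Lamin A profile, above the bin outside the border. At the Hoxd1 end the last bin inside, chr2:74605001-74610000, was at 0.87 in the Dam-Lamin A profile and 0.89 in the Dam-Lap2b profile, the highest of the cluster in both. The bin outside it was at 0.40 and 0.98. The bin before it, chr2:74595001-74605000, was at 0.78 and −0.01. The low signal therefore ended inside the cluster borders on this side.

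Other dips lay in the Hoxd flanks, and they were deeper in the Dam-Lamin A profile. The bin chr2:74405001-74415000, beyond Hoxd13, was at −2.52 in the Dam-Lamin A profile and −0.43 in the Dam-Lap2b profile. It held 115 Dam-Lamin A reads, 562 Dam-Lap2b reads and 741 reference reads. On the Mtx2 side, chr2:74680001-74690000 was at −1.39 and −0.13. Both bins were chosen after their values were seen. In these stretches the order of the profiles was the opposite of that within the cluster.

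**Figure D2:**
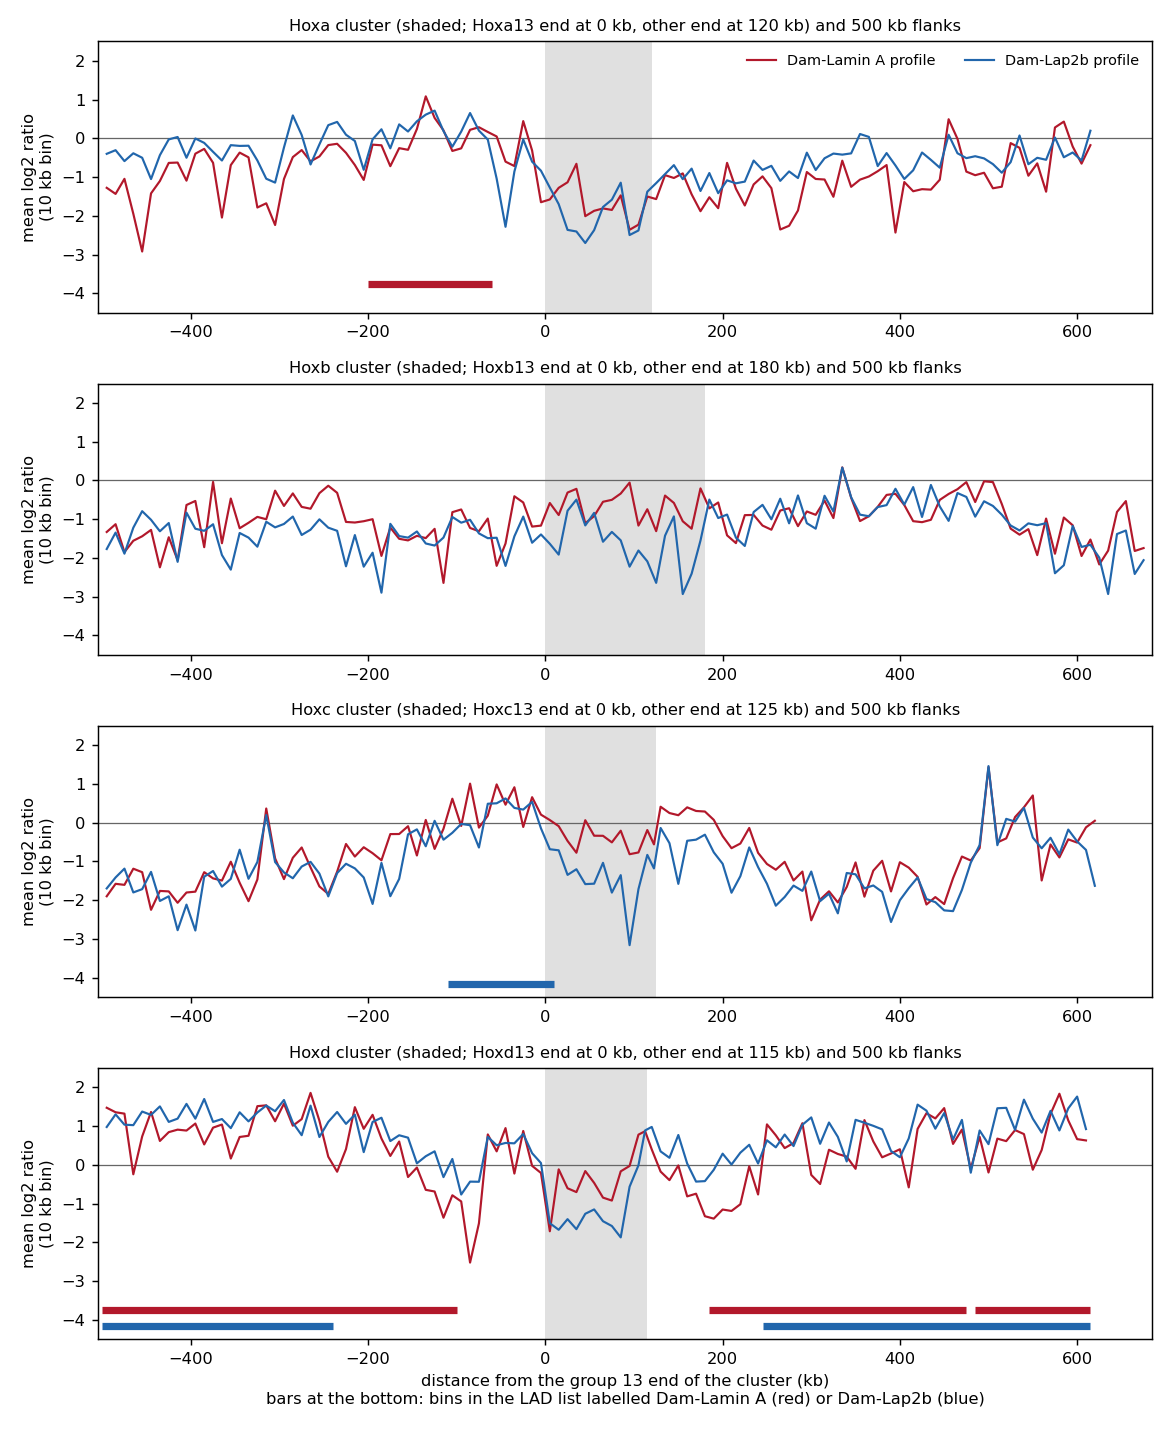
Mean log2 ratio in 10 kb bins (vertical axis) against distance from the group 13 end (horizontal axis, kb) for each cluster (grey band) with 500 kb on each side, for the Dam-Lamin A profile (red line) and the Dam-Lap2b profile (blue line). Bars at the bottom mark bins in the LAD list of each label, and Hoxd is the only cluster with LADs of both lists in both flanks.

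Hoxb lay far from the LADs of both lists. None of the 180 kb of the cluster and none of its flanks were in a LAD of either list. The nearest LADs by the Dam-Lamin A list lay 2.34 Mb beyond Hoxb13 and 3.30 Mb beyond Hoxb1, and the gap between them, 5.82 Mb, was longer than 99.1% of gaps. In the list labelled Dam-Lap2b the gap was 6.02 Mb and longer than 99.3%. Its flanks averaged −1.09 beyond Hoxb13 and −0.93 beyond Hoxb1 in the Dam-Lamin A profile, and −1.46 and −1.04 in the Dam-Lap2b profile. The highest flank bin in both profiles, chr11:96380001-96390000 on the Skap1 side, reached 0.34 and 0.33.

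The mean of the cluster was above those of these low flanks in 1 profile and below them in the other, mostly by little. In the Dam-Lamin A profile Hoxb was above its flanks by 0.41 and 0.25 (Hoxb13 side first), whereas in the Dam-Lap2b profile it was below them by −0.15 and −0.57. Hoxc behaved alike. It was above its flanks by 0.39 and 0.37 in the Dam-Lamin A profile and differed from them by −0.44 and −0.26 in the Dam-Lap2b profile. With flanks of 250 kb, the difference of Hoxc from the flank beyond Hoxc13 was −0.26 in the Dam-Lamin A profile, so that its sign changed. With medians over fragments, the difference of Hoxc from the Hoxc4 side was 0.054 in the Dam-Lap2b profile. All 8 differences were smaller than 1 SD over the bins of the cluster except 0.41 for Hoxb and 0.39 and 0.37 for Hoxc in the Dam-Lamin A profile.

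Hoxa was below the flank beyond Hoxa13, and Hoxd below both of its flanks, in both profiles. Hoxa differed from the flank beyond Hoxa13 by −1.07 in the Dam-Lamin A profile and −1.75 in the Dam-Lap2b profile. Hoxd differed from the flank beyond Hoxd13 by −0.90 and −1.99 and from the flank beyond Hoxd1 by −0.65 and −1.88. In these 3 cases the difference was larger in the Dam-Lap2b profile.

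At Hoxa, a weak patch lay beyond Hoxa13, on the Evx1 side. The list labelled Dam-Lamin A held the LAD chr6:52282154-52422267 there, 140 kb long and 62.2 kb from the cluster, and the list labelled Dam-Lap2b had 0% of it. The LAD averaged 0.07 in the Dam-Lamin A profile and 0.25 in the Dam-Lap2b profile. Its strongest bins were chr6:52350001-52360000 at 1.08 in the former profile and chr6:52340001-52350000 at 0.71 in the latter. Neither profile gave a domain there when domains were called in both with 1 rule, as runs of at least 100 kb of bins above 0. By the Dam-Lap2b list the whole region lay in a gap of 6.70 Mb, longer than 99.5% of gaps.

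Hoxc had a LAD edge inside its borders. The list labelled Dam-Lap2b held the LAD chr15:102633267-102752203, 119 kb long, which ran 7.20 kb into the Hoxc13 end and made 5.76% of the cluster. None of it was in the list labelled Dam-Lamin A. It averaged 0.44 in the Dam-Lamin A profile and 0.09 in the Dam-Lap2b profile, so that the profile of the other label was the higher. The 100 kb next to Hoxc13 averaged 0.43 and 0.18 in these profiles, and the 100 kb next to Hoxc4 averaged 0.04 and −0.83. Farther out the flank beyond Hoxc13 was lower, at −1.70 and −1.77 in its last 100 kb. On the Hoxc4 side the next 100 kb averaged −1.29 and −1.57, and the last 100 kb of that flank was at −0.24 and −0.53.

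The Hoxc cluster lies near the end of its chromosome. The last fragment of chromosome 15 ended 625 kb past the cluster. The list labelled Dam-Lamin A held a LAD at that end, chr15:103372992-103494900, with means of 1.91 and 1.51, and the list labelled Dam-Lap2b had none between Hoxc and the chromosome end. The highest bin of the Smug1 side flank, chr15:103240001-103250000, reached 1.43 in the Dam-Lamin A profile and 1.46 in the Dam-Lap2b profile.

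The profiles parted inside the clusters, with the one labelled Dam-Lamin A the higher. This direction rests on profile labels that go crosswise with the LAD lists. The Dam-Lamin A profile was above the Dam-Lap2b profile by 0.31 in Hoxa, 0.93 in Hoxb, 1.02 in Hoxc and 0.79 in Hoxd. Of all genome windows of the same length, 98.7% had a lower difference than Hoxb, 99.0% a lower one than Hoxc, 97.1% than Hoxd and 83.5% than Hoxa. In the flanks the difference was −0.36 beyond Hoxa13 and −0.44 and −0.30 for Hoxd, and it was 0.11 to 0.39 for Hoxb and Hoxc. For Hoxa the sign was not settled, since medians over fragments gave −0.15.

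The Dam-Lamin A profile was the higher in 47 of the 55 cluster bins, where it was the higher in 44.2% of all bins. It was at least 1 above the Dam-Lap2b profile in 21 of 55, against 4.15% of all bins and 6.46% of bins in neither list. These were 11 of 18 bins in Hoxb, 5 of 13 in Hoxc, 3 of 12 in Hoxd and 2 of 12 in Hoxa. The reverse, the Dam-Lap2b profile at least 1 higher, was seen in 0 of 55 cluster bins and in 33 of 400 flank bins, against 7.08% of all bins. In the flanks 19 of 400 bins had the Dam-Lamin A profile at least 1 above the other. These were 6 of 50 beyond Hoxb13, 2 beyond Hoxb1, 5 beyond Hoxc13, 4 beyond Hoxc4 and 2 beyond Hoxa13. The other flanks had 0. The widest such gap in a flank was 1.83, beyond Hoxb13. Both profiles are ratios to the same presumed reference, which cancels in their difference.

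Within Hoxa the difference varied with position. In the 12 bins it ran from −0.33 to 1.75, and the bins with at least 1 were the neighbours chr6:52180001-52190000 and chr6:52190001-52200000, 20 to 40 kb from the Hoxa13 end. The former was at −0.66 in the Dam-Lamin A profile, the highest of the cluster, and at −2.41 in the Dam-Lap2b profile. The lowest Hoxa bin of the Dam-Lap2b profile, chr6:52170001-52180000, was at −2.70, with −2.01 in the Dam-Lamin A profile.

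Within Hoxb the gap between profiles spread over most of the cluster. The widest gap was 2.17, in chr11:96140001-96150000, which was at −0.06 in the Dam-Lamin A profile, its highest, and at −2.22 in the Dam-Lap2b profile. The lowest bin in the Dam-Lap2b profile, chr11:96200001-96210000 toward Hoxb1, was at −2.93 and held 230 Dam-Lap2b reads against 3722 of the reference. The stretch chr11:96070001-96110000, between 20 and 60 kb from the Hoxb13 end, had a gap under 0.5 in each of its 4 bins, and the highest Hoxb bin of the Dam-Lap2b profile, at −0.49, lay in it. This stretch was chosen after its values were seen.

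Within Hoxc all 13 bins were higher in the Dam-Lamin A profile, by 0.43 to 2.35. The widest gap was in chr15:102835001-102845000, which was the lowest bin in both profiles at −0.81 and −3.16. It held 3900 Dam-Lamin A reads, 382 Dam-Lap2b reads and 5153 reference reads. The bin over the Hoxc13 end, chr15:102745001-102755000, was the highest in both, at 0.07 and −0.69.

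Within Hoxd 10 of 12 bins were higher in the Dam-Lamin A profile, with the first and last bins as exceptions. The first bin at the Hoxd13 end was the lowest of the Dam-Lamin A profile at −1.71, with −1.505 in the other. The widest gap, 1.70, was in chr2:74575001-74585000, at −0.17 and −1.87.

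**Figure D3:**
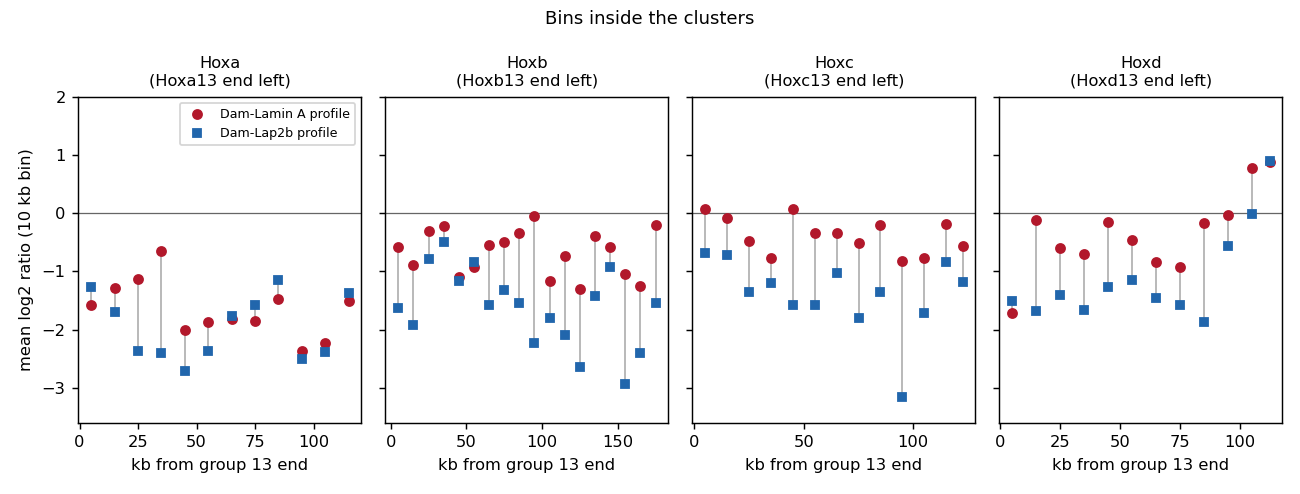
Mean log2 ratio of each 10 kb bin inside the clusters (vertical axis) against distance from the group 13 end (horizontal axis, kb), with the Dam-Lamin A profile as red circles, the Dam-Lap2b profile as blue squares and a grey line joining the values of a bin. The red circle is above the blue square in all 13 Hoxc bins and 17 of 18 Hoxb bins, and in 7 of 12 Hoxa bins.

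The 2 ends of a cluster were compared by splitting it at its midpoint. In the Dam-Lap2b profile the part with the group 13 gene was higher than the remainder in Hoxb (−1.28 against −1.94) and Hoxc (−1.14 against −1.74). It was lower in Hoxa (−2.18 against −1.77) and Hoxd (−1.502 against −0.73). In the Dam-Lamin A profile the values were −1.46 against −1.85 in Hoxa, −0.61 against −0.74 in Hoxb, −0.29 against −0.55 in Hoxc and −0.65 against −0.01 in Hoxd. No end was the lower one in every cluster, and each difference was smaller than 1 SD over the bins of its cluster. Weighted by fragment length, the difference in Hoxb was −0.19 in the Dam-Lamin A profile, so its sign depended on the averaging. With summed reads, the difference in Hoxd was 0.71 in the Dam-Lap2b profile, again of the opposite sign.

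The reads behind the ratios were compared by library. In the reference, Hoxa held 237 reads per kb, against 59.6 beyond Hoxa13 and 60.4 in the genome. The Dam-Lamin A library held 53.1 reads per kb in Hoxa against 34.3 in that flank, and the Dam-Lap2b library 52.0 against 47.6. The low ratio of Hoxa thus went with a dense reference and not with fewer reads of either fusion than in that flank. The part of the reference in the result was not tested. For 1 Hoxa fragment and 2 fragments of the flank beyond Hoxc4 no whole numbers were found, and they counted as 0 in the sums of reads.

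At Hoxd the fusions parted. The Dam-Lamin A library held 106 reads per kb in the cluster against 47.6 beyond Hoxd13 and 44.6 beyond Hoxd1. The Dam-Lap2b library held 20.8 against 64.0 and 59.6, and the reference 105 against 33.9 and 33.5. Much of this rested on few fragments, since the 3 fragments with most Dam-Lamin A reads held 59.5% of the Dam-Lamin A reads of the cluster, 46.7% of the reference reads and 5.47% of the Dam-Lap2b reads. Without them the cluster held 43.4 Dam-Lamin A, 19.96 Dam-Lap2b and 56.5 reference reads per kb. The fragments were chosen for their Dam-Lamin A reads and no flank fragments were left out, so a lower density of that library follows from the choice.

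Hoxb and Hoxc held fewer Dam-Lap2b reads than their flanks, while the reference differed less. In Hoxb the Dam-Lap2b library held 24.6 reads per kb against 31.6 and 36.4 in the flanks, the Dam-Lamin A library 58.3 against 41.8 and 40.5, and the reference 120 against 103 and 94.99. In Hoxc the Dam-Lap2b library held 27.8 against 58.6 and 68.3, the Dam-Lamin A library 87.3 against 63.0 and 91.9, and the reference 117 against 139 and 183. Without the 3 deepest fragments, the Dam-Lamin A density was 51.0 in Hoxb and 72.0 in Hoxc. A fragment of these clusters held a median of 8 Dam-Lamin A reads, of 3 (Hoxb) or 4 (Hoxc) Dam-Lap2b reads and of 13 or 12 reference reads, so single fragments were imprecise.

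**Figure D4:**
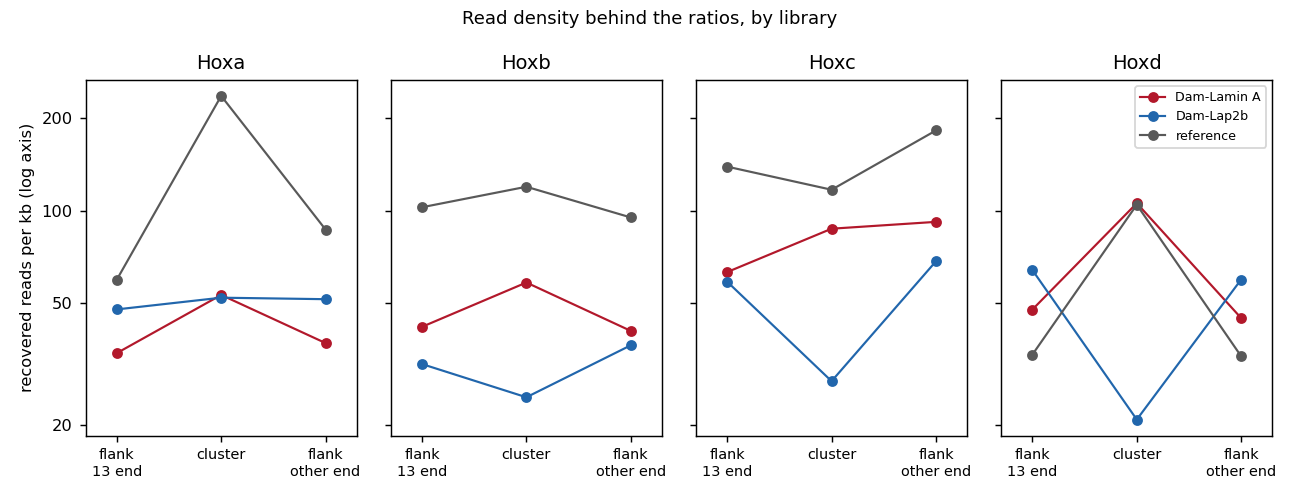
Recovered reads per kb (vertical log axis) in each cluster and its flanks (horizontal axis), for the Dam-Lamin A library (red), the Dam-Lap2b library (blue) and the presumed reference (grey), 1 library each. The Dam-Lap2b line dips in Hoxb, Hoxc and Hoxd, while the reference is above both flanks in Hoxa, Hoxb and Hoxd, least so in Hoxb.

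Among fragments with recovered reads, those with most Dam-Lamin A reads are given as a description. In Hoxd the 2 neighbouring fragments chr2:74577941-74578248 and chr2:74578252-74578606 held 2234 and 4541 Dam-Lamin A reads and 1710 and 3650 reference reads, but 48 and 63 Dam-Lap2b reads. They lay in a run of 7 fragments over 2.12 kb, chr2:74576489-74578606, in each of which the Dam-Lamin A value was at least 2 above the Dam-Lap2b value. In Hoxc a run of 7 fragments over 3.28 kb, chr15:102841320-102844595, held 2428, 37 and 1970 reads of Dam-Lamin A, Dam-Lap2b and reference. In Hoxb 4 fragments over 2.40 kb, chr11:96200360-96202759, held 1005, 44 and 2587. In Hoxa 2 fragments over 1.44 kb, chr6:52171443-52172879, held 492, 3 and 2338. These runs were chosen after the values were seen, around the fragment with most Dam-Lamin A reads in each cluster and over neighbours with the same gap of at least 2. That choice fixes that Dam-Lamin A reads outnumber Dam-Lap2b reads in them.

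The cluster means were also taken without the 3 fragments with most Dam-Lamin A reads in each cluster. The runs above were not left out as a whole. Without the 3 deepest, the means were −1.66, −0.68, −0.42 and −0.33 in the Dam-Lamin A profile, from Hoxa to Hoxd, and −1.92, −1.57, −1.39 and −1.07 in the Dam-Lap2b profile. The difference between the profiles was then 0.27, 0.89, 0.97 and 0.73. Each fragment counts once in these means, whatever its reads. Leaving out 3 of 244 to 438 fragments could thus hardly move them, and the part of the runs in the means was not tested.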

How the data were processed

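The deposited profiles held 1 log2 value per fragment between GATC sites, and the deposited LAD lists held start and end without a score. Per the submitters' processing notes, Bowtie and the build mm9 were used. The counting, the normalization, the caller of LADs and the version of Bowtie were not given in the sources used here. No separate file of the Dam-only sample was used here. The cluster borders, the gene lists and the comparisons were chosen with earlier results of these data known.

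Values were averaged over fragments whose middle lay in a region, and in 10 kb bins with at least 5 fragments, laid from the cluster borders and, for the genome, from the start of each chromosome (255936 bins). Bins and windows of the genome served as background, and no test was run. In each cluster the highest and lowest bin of each profile, in each flank the highest bin, and the nearest LADs were named, plus those said to be chosen after their values were seen. Reads were recovered as the smallest whole numbers, with denominators up to 5000, that gave both deposited log2 values as a constant plus log2((fusion + 1)/(reference + 1)), the constant being the most frequent value of each profile. The added 1 was presumed, not stated by any source. They were found for 99.9968% of fragments. The recovery was tried on 200000 simulated fragments, shallower on average than the real ones and with no very deep ones. Of these, 85.7% were recovered exactly and 0% above the true value, with totals at 90.5 to 90.7% of the truth. In a separate simulation, a cluster with true differences from its flank of −1.5 and 0.5 was measured at −1.49 and 0.499. Its fragments were drawn so deep that the added 1 hardly shifted a ratio. Fragments of the real clusters held a median of 3 to 8 Dam-Lap2b reads, so this does not show how well their means were measured. Python 3.11.15, numpy 2.4.6, pandas 2.3.3 and numba 0.67.0 were used. Alternatives covered the averaging, fragment choice, borders, flank and bin sizes and the LAD definition. Some results at the Hoxa cluster are not reported here.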

Additional observations from a re-analysis of the deposited data

Results flagged for a closer look

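The contrast of cluster against flank pointed in opposite directions in the 2 groups at Hoxb and Hoxc. Hoxb minus the flank beyond Hoxb13 was 0.41 in the Dam-Lamin A profile and −0.15 in the Dam-Lap2b profile, and minus the flank beyond Hoxb1 it was 0.25 and −0.57. Hoxc minus the flank beyond Hoxc13 was 0.39 and −0.44, and minus the flank beyond Hoxc4 it was 0.37 and −0.26. Only 0.41 for Hoxb and 0.39 and 0.37 for Hoxc were larger than 1 SD over the bins of the cluster. With a flank of 250 kb, the 0.39 became −0.26. With medians over fragments, the −0.26 of the Hoxc4 side became 0.054. The contrast of the 2 ends of Hoxa also had opposite signs, since the part with Hoxa13 minus the remainder was 0.40 in the Dam-Lamin A profile and −0.40 in the Dam-Lap2b profile. With 1 sample in each group, none of these differences between the groups was tested.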

How the results depend on the processing

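Each of 92 values was recomputed under its alternatives, 492 recomputations in all. In 466 the value kept its sign and moved by less than 1 SD over the 10 kb bins of its region (by less than 10 percentage points for shares in LADs, and within 1.5 times for shares of bins). That bar was wide against some values. Hoxb minus the flank beyond Hoxb13 went from −0.15 to −0.58 with summed reads in the Dam-Lap2b profile. It still counted among the 466, since the SD was 0.66. In the cases outside the 466 the cause was not tested. With summed reads, Hoxd was at 0.10 in the Dam-Lamin A profile and −2.30 in the Dam-Lap2b profile, its difference between profiles was 2.41 and that of Hoxc 1.71, Hoxd differed from its flanks by −3.24 (Hoxd13 side) and −3.16 in the Dam-Lap2b profile, Hoxc from the flank beyond Hoxc13 by 0.72 in the Dam-Lamin A profile, and the 2 ends of Hoxd by 0.71 in the Dam-Lap2b profile. Without the 3 deepest fragments, an alternative chosen after seeing the data, summed reads gave −0.30 and −1.48 for Hoxd and a difference between profiles of 1.18, and −0.12 for that of Hoxa. With fragments weighted by length, Hoxa differed from the flank beyond Hoxa13 by −0.52 and the ends of Hoxb by −0.19 in the Dam-Lamin A profile, the flank beyond Hoxd1 was at −0.0032 in that profile, and the profiles differed by −0.034 in the flank beyond Hoxb1. Medians gave a difference between profiles of −0.15 in Hoxa and of Hoxc from the Hoxc4 side of 0.054 in the Dam-Lap2b profile. With flanks of 250 kb, the flank beyond Hoxd1 was at −0.071 in the Dam-Lamin A profile and Hoxc differed from the flank beyond Hoxc13 by −0.26, the latter an alternative chosen after seeing the data. The flank of 1 Mb beyond Hoxc4 ends with the chromosome.

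Domains called here from the profile of the same label covered 49% of the flank beyond Hoxd13 and 12% of that beyond Hoxd1 for Dam-Lamin A, and 71% of the flank beyond Hoxd13 for Dam-Lap2b. They covered 0% of the flank beyond Hoxa13 for Dam-Lamin A, as did those from the other profile. They covered 12% of the Hoxc cluster and 23% of the flank beyond Hoxc13 for Dam-Lamin A, and 0% of the latter for Dam-Lap2b. When the Dam-Lap2b list was set against domains from the Dam-Lamin A profile, a choice made after seeing the data, the share of the flank beyond Hoxd1 was 12% in place of 74.8%. Some other crosswise shares were closer. Domains from the Dam-Lap2b profile covered 71% and 82% of the flanks beyond Hoxd13 and Hoxd1, against 80.6% and 83.2% in the Dam-Lamin A list. Those from the Dam-Lamin A profile covered 49% of the flank beyond Hoxd13 and 23% of that beyond Hoxc13. The Dam-Lap2b list had 51.4% and 22.3% there. Beyond Hoxa13 the Dam-Lamin A list had 28.0%, against 0% crosswise. No paired analysis was possible because each group had 1 sample.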
